A study of Mus musculus with 9 samples.

Results

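Elastic fibre genes encode the proteins of the extensible fibres of skin, lung and arteries. 10 of them were followed in RNA-Seq data of murine embryonic fibroblasts (MEFs), out of 24341 genes listed by symbol in each sample. The 10 were elastin (*Eln*), the fibrillins *Fbn1* and *Fbn2*, the fibulins *Fbln1*, *Fbln2* and *Fbln5*, the microfibril-associated genes *Mfap2*, *Mfap4* and *Mfap5*, and *Emilin1*. Their rows were found by gene symbol, and all 10 were listed in every sample. The data comprised 9 samples of strain C57BL/6, of which 3 were WT, 3 *Atm-/-* and 3 *Sirt6-/-*. ATM is the kinase that signals DNA double-strand breaks, SIRT6 is a chromatin deacylase, and the study asked how the loss of either changes gene expression. All cells were grown in DMEM with fetal bovine serum, and no age, passage or treatment of single samples is given. The study's methods name immortalized *Atm-/-* MEFs that also lack p53 and *Sirt6-/-* MEFs, each a gift of another laboratory, and the treatment text of all samples lists *P53-/-* and *Atm-/-P53-/-* mice without tying them to a sample. A genotype and the line that carries it therefore cannot be told apart. Nothing says that the 3 samples of a genotype were separate cultures or embryos, so p-values measure only the spread between these samples, which may be technical.

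Elastic fibres are built outside the cell. Fibrillins assemble into microfibrils, which carry MAGP proteins (the products of *Mfap2* and *Mfap5*) and EMILIN-1, and tropoelastin, the product of *Eln*, is laid down on this scaffold. Fibulin-5 and fibulin-4 bind tropoelastin and the lysyl oxidases, which cross-link it into the insoluble polymer. Microfibrils also bind latent TGF-beta through the latent TGF-beta binding proteins. Most elastin is made before and shortly after birth, by smooth muscle cells and fibroblasts.

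On GRCm38 the members lie apart from one another: *Eln* at chr5:134702593-134747323, *Fbn1* at chr2:125300594-125507993, *Fbln1* at chr15:85205949-85286535, *Fbln2* at chr6:91212455-91272540, *Fbln5* at chr12:101746565-101819055, *Mfap2* at chr4:141010418-141015984, *Mfap4* at chr11:61485431-61488900, *Mfap5* at chr6:122505845-122529290 and *Emilin1* at chr5:30913402-30921277. The reads count whole genes, so exons and isoforms were not resolved. Exons of 4 members overlap a gene on the opposite strand in the GENCODE M21 annotation. These are *Fbn1* with *Gm9913* over 2442 bases, *Eln* with *Gm30003* over 267 bases, *Fbn2* with *Gm26507* over 129 bases and *Mfap4* with *Mapk7* over 89 bases. The library protocol names no step that marks the strand, so reads of such a pair cannot be told apart.

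RefSeq promoter windows, from 250 bases before to 50 bases after a transcript start, were at hand for 6 of the 10 genes, in 9 windows. 5 are shown, and those of *Fbln1*, which was higher than WT in both mutants, are described but not shown. Of the genes shown, *Fbn1* was higher and *Fbln2* lower than WT in both mutants. *Fbln5* and *Emilin1* fell in *Atm-/-* and rose in *Sirt6-/-*, and *Mfap2* rose in *Sirt6-/-*. Each window shown is written 5′ to 3′ on the gene's own strand, on build GRCm38.p6, with GC boxes (GGGCGG on either strand) in capitals. The windows are chr2:125506389-125506688 on the minus strand for *Fbn1*, chr6:91212514-91212813 on the plus strand for *Fbln2*, chr12:101819070-101819369 on the minus strand for *Fbln5*, chr4:141010431-141010730 on the plus strand for *Mfap2* and chr5:30913536-30913835 on the plus strand for *Emilin1*.
Fbn1 promoter: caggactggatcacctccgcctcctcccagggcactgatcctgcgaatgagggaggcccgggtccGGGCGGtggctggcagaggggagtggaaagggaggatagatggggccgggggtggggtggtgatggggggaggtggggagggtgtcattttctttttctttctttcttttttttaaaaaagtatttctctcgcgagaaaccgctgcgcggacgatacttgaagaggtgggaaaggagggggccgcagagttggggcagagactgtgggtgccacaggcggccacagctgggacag
Fbln2 promoter: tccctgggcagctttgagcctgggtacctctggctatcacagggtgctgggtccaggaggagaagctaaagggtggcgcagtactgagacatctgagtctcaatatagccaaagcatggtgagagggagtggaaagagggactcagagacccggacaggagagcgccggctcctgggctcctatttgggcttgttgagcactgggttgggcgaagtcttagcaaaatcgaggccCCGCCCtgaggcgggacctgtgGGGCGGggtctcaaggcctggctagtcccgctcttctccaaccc
Fbln5 promoter: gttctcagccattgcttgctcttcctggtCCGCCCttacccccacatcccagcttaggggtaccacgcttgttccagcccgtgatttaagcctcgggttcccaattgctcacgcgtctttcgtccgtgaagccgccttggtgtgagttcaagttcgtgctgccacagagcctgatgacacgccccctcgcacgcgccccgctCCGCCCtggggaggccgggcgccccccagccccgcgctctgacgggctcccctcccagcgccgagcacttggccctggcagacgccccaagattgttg
Mfap2 promoter: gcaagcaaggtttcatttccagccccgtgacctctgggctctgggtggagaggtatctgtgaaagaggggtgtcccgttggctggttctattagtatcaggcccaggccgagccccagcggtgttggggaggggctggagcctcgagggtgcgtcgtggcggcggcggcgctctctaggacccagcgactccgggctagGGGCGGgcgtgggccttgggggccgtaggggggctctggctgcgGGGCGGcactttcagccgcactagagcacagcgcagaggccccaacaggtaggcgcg
Emilin1 promoter: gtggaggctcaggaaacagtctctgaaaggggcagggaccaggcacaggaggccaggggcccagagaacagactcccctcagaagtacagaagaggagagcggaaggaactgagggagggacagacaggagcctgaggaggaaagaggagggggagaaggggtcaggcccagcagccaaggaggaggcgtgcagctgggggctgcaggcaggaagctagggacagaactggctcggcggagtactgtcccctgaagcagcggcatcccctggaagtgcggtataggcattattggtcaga
GC boxes stand at -185 in *Fbn1*, at -16 and 7 in *Fbln2*, at -221 and -48 in *Fbln5* and at -51 and -7 in *Mfap2*, counted from the transcript start. The *Emilin1* window holds none of the motifs searched. Of the 9 windows, 5 held a GC box, against 35.7% of all 32851 RefSeq windows. Both *Fbln1* windows held an E-box (CACGTG, 7.15% of all windows), but these windows overlap and it is the same site in both. The second *Mfap2* window held the TEAD letters GGAATG (14.7% of all windows). A TATA box (TATAAA, 13.6% of all windows) or an AP-1 site (TGACTCA, 5.2% of all windows) was in none of the 9. Their GC content was 60.3% for *Fbn1*, 60.3% for *Fbln2*, 65.7% for *Fbln5*, 68.0% for *Mfap2* and 61.7% for *Emilin1*, against a median of 52.7% over all windows. These matches describe letters only.

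Each sample held 32187040 to 33837949 counted reads, so that 3 reads correspond to 0.0887 to 0.0932 CPM (read counts scaled to library size). *Sirt6* had 4, 5 and 7 reads in the *Sirt6-/-* samples against 402 to 487 in WT. *Atm* RNA does not show the label of the *Atm-/-* samples: the gene had 3443 to 3768 reads there and 1536 to 1627 in WT. *Trp53* had 806 to 946 reads in *Atm-/-* and 6563 to 7108 in WT. WT replicate 2 stood somewhat apart from the other WT samples, with a chi-square per gene of 14.4 and 15.6 against them, where all other pairs of one genotype had 5.11 to 6.66. Values without it are given where they changed a call. Markers of fibroblasts were present in all samples, with 10 or 11 of 11 genes above 3 reads in every sample of a genotype and *Lum* at 0 in *Atm-/-*. The marker below this limit in *Sirt6-/-* was *Thy1*, with 1 to 33 reads there and 590 to 941 in WT. In these bulk samples, fewer cells of a type and less RNA per cell cannot be told apart.

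Normalized CPM (with library sizes scaled over all 9 samples by TMM) are given below for each sample, and RPKM, which divides by gene length, wherever levels of different genes are compared. Fold changes come from edgeR's quasi-likelihood test of each pair of genotypes, and a gene was called at a Benjamini-Hochberg adjusted p under 0.05 over all genes tested. Both mutants were compared with the same 3 WT samples. A count of 10 genes must be read against a broad change, because 68.4% of 13283 tested genes were called between *Atm-/-* and WT and 76.6% of 13206 between *Sirt6-/-* and WT.

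In *Atm-/-* MEFs, 2 elastic fibre genes rose (*Fbn1* and *Fbln1*, against 34.7% of all tested genes called higher), 5 fell (*Eln*, *Fbn2*, *Fbln2*, *Fbln5* and *Emilin1*, against 33.6% called lower), *Mfap2* was not called, and *Mfap4* and *Mfap5* had too few reads for the test. In *Sirt6-/-* MEFs, 6 rose (*Fbn1*, *Fbln1*, *Fbln5*, *Mfap2*, *Mfap4* and *Emilin1*, against 39.2%), 2 fell (*Eln* and *Fbln2*, against 37.4%), *Fbn2* was not called, and *Mfap5* was not tested. The median log2 fold change of the members tested was -1.46 in *Atm-/-* and 1.15 in *Sirt6-/-*, where it was 0.02 over all genes in either comparison. Past a 2-fold limit, 1 member was higher and 5 were lower in *Atm-/-*, against 12.6% and 9.85% of all tested genes (22.5% in both directions). In *Sirt6-/-*, 5 were higher and 2 lower, against 17.5% and 11.8% (29.3% in both directions). The samples of the 2 genotypes did not overlap for 7 of the 8 members tested in *Atm-/-* and 8 of the 9 in *Sirt6-/-*, against 72.6% and 79.0% of all genes. *Eln* passed the filter on low counts through its WT samples alone, and *Mfap4* through its *Sirt6-/-* samples alone, so their calls are no support for a difference.

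**Figure D1:**
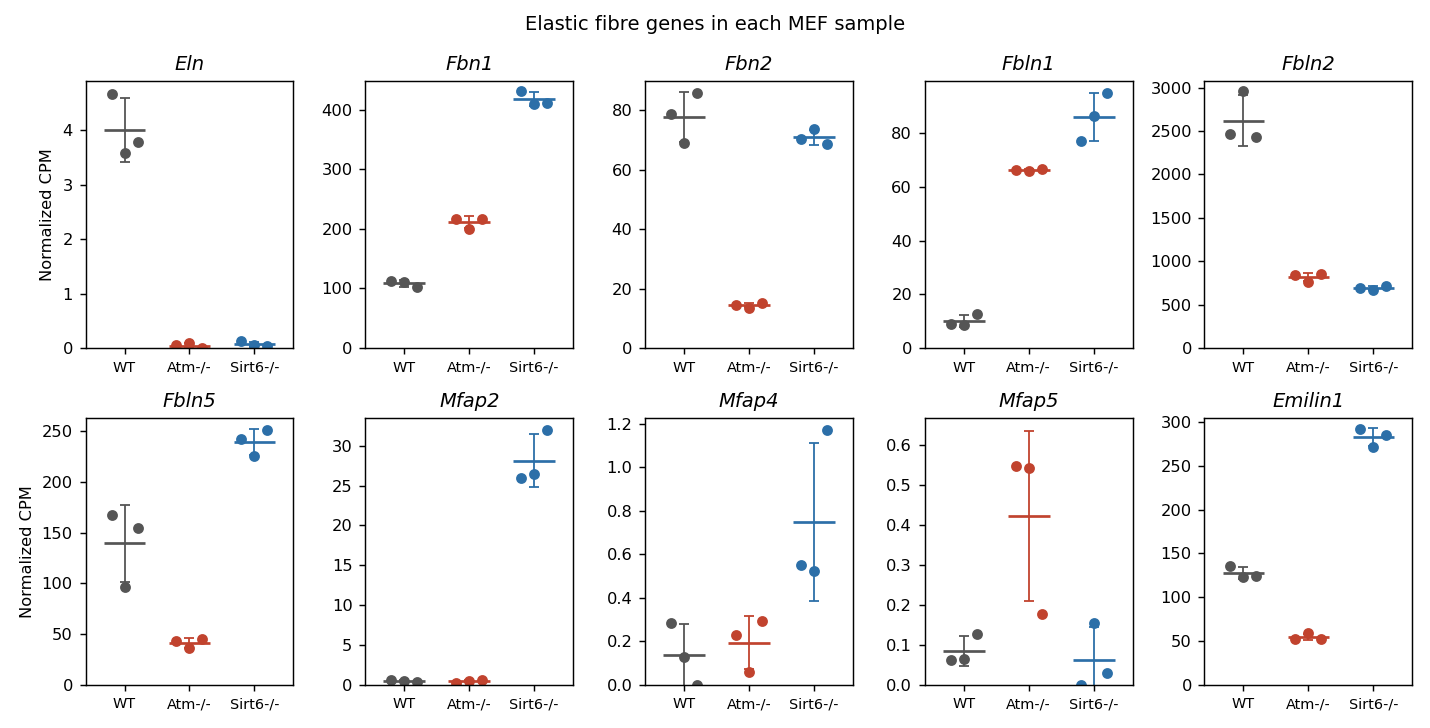
Normalized CPM (linear axes from 0) of the 10 elastic fibre genes in each of the 9 samples. Points are samples, horizontal lines are means of 3 samples and bars are 1 SD, which are clipped at 0 for the genes with few reads. *Eln* is near 0 in both mutants, *Mfap2* stands above 0.7 only in the *Sirt6-/-* samples, and *Fbln5* and *Emilin1* lie below WT in *Atm-/-* and above WT in *Sirt6-/-*.

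Elastin RNA was nearly absent from both mutants. *Eln*, which encodes the elastic core of the fibre, had 149, 112 and 119 reads in the WT samples, 2, 3 and 0 in *Atm-/-* and 4, 2 and 1 in *Sirt6-/-*. No mutant sample came near the lowest WT sample, although even the WT level was low, at 4.01 ± 0.582 normalized CPM (SD, n = 3). Summed over the 3 samples and scaled for depth, WT had 83.1 times the reads of *Atm-/-* (95% exact counting interval 35.3 to 258) and 56.4 times those of *Sirt6-/-* (27.1 to 141). These intervals cover counting error only. The fitted log2 fold change was -6.28 (SE 0.46, adjusted p = 1.7e-08) in *Atm-/-* and -5.74 (SE 0.41, adjusted p = 8.8e-09) in *Sirt6-/-*, and it depends on the prior count at so few reads. *Eln* passed the filter on low counts through the WT samples alone, so these p-values are a description and no support for a difference. The mutants held 5 and 7 *Eln* reads in all, too few to pass the filter on low counts. With no filter their log2 fold change (*Atm-/-* over *Sirt6-/-*) was -0.52 with an adjusted p of 0.76, and *Sirt6-/-* had 1.47 times the scaled reads of *Atm-/-* (counting interval 0.403 to 5.89). Of 6 smooth muscle markers, *Acta2*, *Tagln*, *Cnn1* and *Smtn* were above 3 reads in every sample and were called lower than WT in both mutants. *Des* was called lower in *Sirt6-/-* (log2 fold change -2.11, adjusted p = 2.1e-03) and not called in *Atm-/-* (-0.66, adjusted p = 0.17). In the *Sirt6-/-* comparison *Des* passed the filter on low counts through WT alone, so that p-value is a description and no support. *Myh11* had 0 to 9 reads in WT and 11 to 13 in *Sirt6-/-*. *Myh11* was not called in *Sirt6-/-* (1.66, adjusted p = 0.057) and not tested in *Atm-/-*. The 6 summed to 2802 to 3028 CPM in WT, 996 to 1270.05 in *Atm-/-* and 1405 to 1762 in *Sirt6-/-*. The part of these markers in the *Eln* result was not tested.

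The fibrillins went apart. *Fbn1*, the major fibrillin of adult microfibrils, had 112, 111 and 102 CPM in WT, 216, 199.7 and 217 in *Atm-/-* and 431, 409.5 and 411 in *Sirt6-/-*. The 3 genotypes did not overlap, with WT lowest and *Sirt6-/-* highest. *Fbn1* rose by a log2 fold change of 0.95 (SE 0.05, adjusted p = 8.7e-10) in *Atm-/-* and of 1.94 (SE 0.05, adjusted p = 8.3e-14) in *Sirt6-/-*, and was lower in *Atm-/-* than in *Sirt6-/-* by 0.98 (log2 fold change -0.98, SE 0.04, adjusted p = 1.1e-14). *Fbn2*, the fibrillin made mostly during development, had 78.7, 69.0 and 85.7 CPM in WT and 14.5, 13.6 and 15.3 in *Atm-/-*, a log2 fold change of -2.43 (SE 0.09, adjusted p = 5.2e-12). In *Sirt6-/-* it had 70.4, 73.5 and 68.6 CPM, which overlapped WT, and it was not called (-0.13, SE 0.07, adjusted p = 0.10). Without WT replicate 2, the lowest of the WT samples, the same difference was -0.23 with an adjusted p of 0.0018. Between the mutants the *Fbn2* log2 fold change was -2.28 (SE 0.07, adjusted p = 2.2e-17).

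Per length, *Fbn1* exceeded *Fbn2* in every sample, and the ratio of their RPKM lay in a separate range in each genotype. It was 1.51, 1.71 and 1.26 in WT, 6.49, 5.90 and 6.35 in *Sirt6-/-* and 15.8, 15.5 and 15.03 in *Atm-/-*. The ranges did not overlap in any of the 3 comparisons. Each two-sided exact permutation test gave p = 0.1, the smallest that 3 samples against 3 allow, and 0.1125 after adjustment over 9 such tests of 3 measures. In *Sirt6-/-* the ratio was higher with more *Fbn1* RNA and a *Fbn2* level that overlapped WT, and in *Atm-/-* it was higher with more *Fbn1* RNA and less *Fbn2* RNA.

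Of the fibulins, *Fbln2* gave by far the most RNA of all 10 genes. *Fbln2* encodes a basement membrane and microfibril glycoprotein, and it had 2467, 2962 and 2435 CPM in WT, 837, 762 and 858 in *Atm-/-* and 689, 666 and 717 in *Sirt6-/-*. Every mutant sample lay far below every WT sample, and the mutants also did not overlap each other. The log2 fold change was -1.69 (SE 0.07, adjusted p = 2.3e-11) in *Atm-/-*, -1.92 (SE 0.07, adjusted p = 2.0e-12) in *Sirt6-/-* and 0.25 (SE 0.04, adjusted p = 1.8e-05) between *Atm-/-* and *Sirt6-/-*. *Fbln2* was the only member called higher in *Atm-/-* than in *Sirt6-/-*. All 4 mesothelial markers were above 3 reads in every sample and were called lower than WT in both mutants, at 1405 to 1871 summed CPM in WT, 359 to 384 in *Atm-/-* and 37.6 to 51.6 in *Sirt6-/-*. In *Sirt6-/-* against WT, the markers *Wt1* and *Upk3b* passed the filter on low counts through WT alone, so their calls there are no support. The part of the mesothelial markers in the *Fbln2* result was not tested.

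*Fbln1*, a fibulin found in elastic fibres and basement membranes, went the other way. It had 8.91, 8.70 and 12.9 CPM in WT, 66.3, 66.1 and 66.6 in *Atm-/-* and 77.0, 86.5 and 94.96 in *Sirt6-/-*. The genotypes were separate in this order. *Fbln1* rose by a log2 fold change of 2.70 (SE 0.11, adjusted p = 3.8e-11) in *Atm-/-* and of 3.09 (SE 0.12, adjusted p = 1.1e-11) in *Sirt6-/-*, and the mutants differed by -0.37 (SE 0.06, adjusted p = 1.6e-05).

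*Fbln5*, whose product binds tropoelastin and is needed for elastic fibre assembly in mice, had opposite directions in the mutants. It had 167, 96.2 and 155 CPM in WT, 43.0, 35.9 and 45.0 in *Atm-/-* and 242, 226 and 251 in *Sirt6-/-*. The 3 genotypes did not overlap, although the WT samples spread over a wider range than either mutant because of replicate 2. The log2 fold change was -1.76 (SE 0.15, adjusted p = 1.3e-07) in *Atm-/-* and 0.78 (SE 0.14, adjusted p = 1.2e-04) in *Sirt6-/-*. Without WT replicate 2 these values were -1.97 and 0.56, both still called. Directly compared, *Fbln5* was lower in *Atm-/-* than in *Sirt6-/-* by a log2 fold change of -2.53 (SE 0.07, adjusted p = 1.9e-18).

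Among the microfibril-associated genes, *Mfap2* (MAGP-1, a microfibril protein that binds fibrillin and TGF-beta) was the member with the largest rise, and it rose in *Sirt6-/-*. It had 20, 14 and 10 reads in WT, 10, 17 and 19 in *Atm-/-* and 847, 856 and 1065 in *Sirt6-/-*. WT and *Atm-/-* overlapped near the floor of the measurement, at 0.464 ± 0.156 and 0.445 ± 0.141 normalized CPM (SD, n = 3), and *Sirt6-/-* stood at 28.1 ± 3.31. The log2 fold change was 5.91 (SE 0.19, adjusted p = 6.1e-13) for *Sirt6-/-* against WT, -5.97 (SE 0.17, adjusted p = 1.7e-17) for *Atm-/-* against *Sirt6-/-* and -0.07 (SE 0.46, adjusted p = 0.90) for *Atm-/-* against WT. In scaled reads *Atm-/-* had 0.956 times the WT count, with a counting interval from 0.618 to 1.48. The summed chondrocyte markers were 7.10 to 7.52 CPM in WT, 73.1 to 89.2 in *Atm-/-* and 268 to 321 in *Sirt6-/-*. The *Sirt6-/-* sum was mostly *Col2a1*, at a mean of 273 CPM there, 0.793 in *Atm-/-* and 0.421 in WT. The others did not share this order, with *Acan* at 1.60 CPM in *Sirt6-/-* and 57.1 in *Atm-/-*, *Sox9* at 20.5 and 23.1, and *Col11a2* not called in any comparison. Of their 6 genes, *Col9a1* and *Matn1* were at 0 reads in all 9 samples, and 3 in WT and 4 in each mutant were above 3 reads in every sample. Their part in the *Mfap2* result was not tested.

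*Mfap4* and *Mfap5* were near the limit of these libraries. *Mfap4*, which encodes a fibrinogen-domain protein that binds elastin and fibrillin, had 9, 4 and 0 reads in WT, 8, 2 and 10 in *Atm-/-* and 18, 17 and 39 in *Sirt6-/-*. All *Sirt6-/-* samples were above all others, and the summed scaled reads were 5.48 times those of WT (counting interval 3.02 to 10.8). Its log2 fold change was 2.42 (SE 0.69, adjusted p = 5.2e-03) against WT and -1.93 (SE 0.56, adjusted p = 3.9e-03) for *Atm-/-* against *Sirt6-/-*. Since *Mfap4* passed the filter through the *Sirt6-/-* samples alone, these p-values are a description and no support for a difference. The second of these was lost without *Sirt6-/-* replicate 3, the sample with 39 reads, where it was -1.45 with an adjusted p of 0.0532. *Mapk7*, which shares 89 exon bases with *Mfap4* on the opposite strand, had 1057 to 1822 reads in the samples. Whether reads of *Mapk7* entered the small *Mfap4* counts was not tested.

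*Mfap5* (MAGP-2, the other microfibril-associated glycoprotein) had 2, 2 and 4 reads in WT, 0, 5 and 1 in *Sirt6-/-* and 19, 19 and 6 in *Atm-/-*. The *Atm-/-* samples were the highest, with 5.03 times the scaled reads of WT (counting interval 2.34 to 12.4) and 6.96 times those of *Sirt6-/-* (2.96 to 19.99). It did not pass the filter on low counts in any comparison. With no filter, edgeR's test called it in *Atm-/-* against WT (log2 fold change 2.26, adjusted p = 0.0283) and against *Sirt6-/-* (2.73, adjusted p = 0.0105), and not in *Sirt6-/-* against WT (-0.45, adjusted p = 0.78).

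*Emilin1*, which encodes a glycoprotein at the interface of elastin and microfibrils, moved like *Fbln5*. It had 135, 123 and 124 CPM in WT, 52.5, 58.7 and 52.7 in *Atm-/-* and 292, 272 and 285 in *Sirt6-/-*. The genotypes were separate, with *Atm-/-* lowest and *Sirt6-/-* highest. The log2 fold change was -1.23 (SE 0.06, adjusted p = 2.1e-10) in *Atm-/-*, 1.15 (SE 0.05, adjusted p = 3.6e-11) in *Sirt6-/-* and -2.37 (SE 0.05, adjusted p = 7.4e-20) for *Atm-/-* against *Sirt6-/-*.

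**Figure D2:**
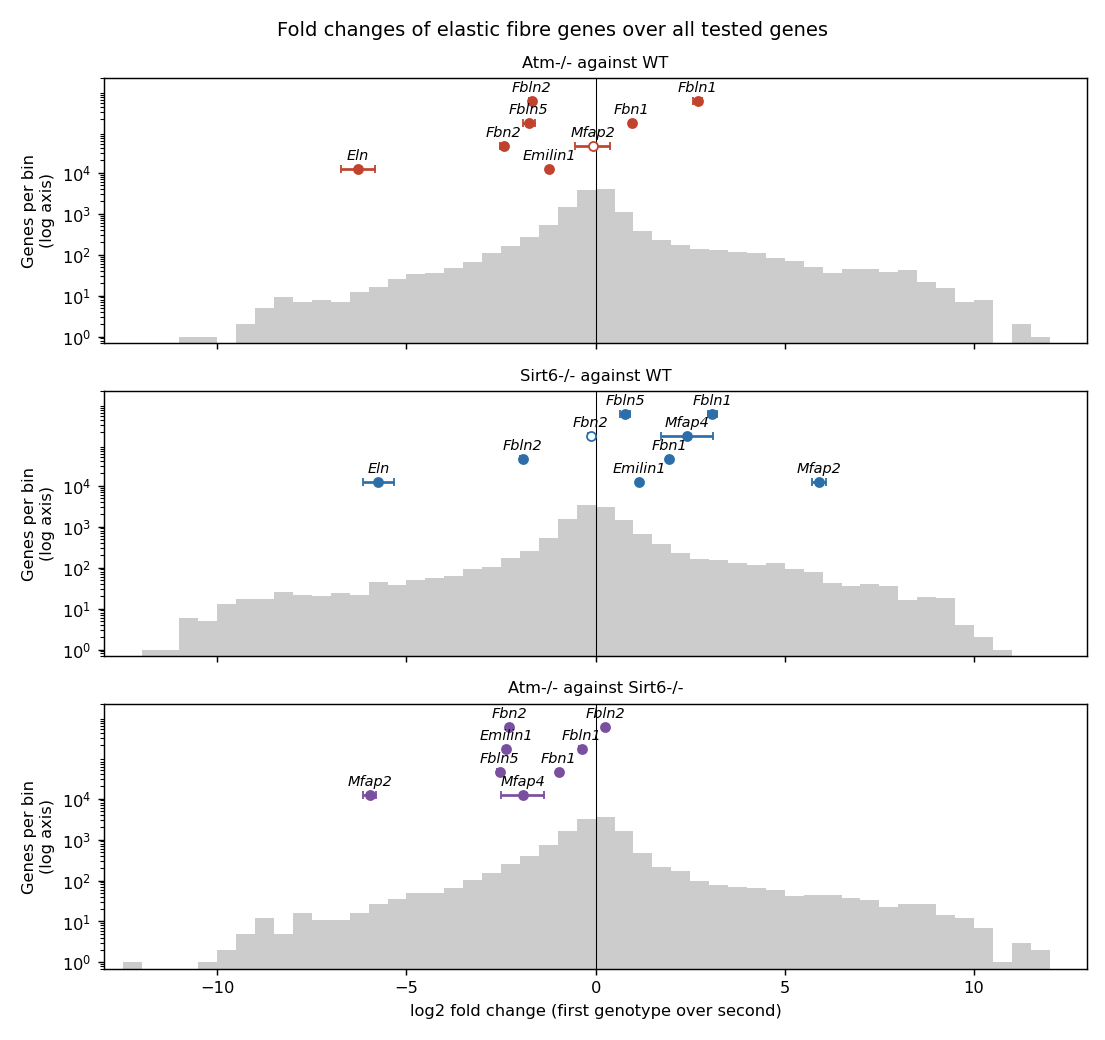
Log2 fold changes of the elastic fibre genes (points, bars are 1 SE, open points were not called) above the distribution of all tested genes in bins of 0.5 (grey, log axis) for the 3 comparisons. The height of a point has no meaning. In *Atm-/-* against *Sirt6-/-*, 7 of the 8 genes tested lie below 0.

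Directly compared, the 8 members that passed the filter were all called. 7 were lower in *Atm-/-* than in *Sirt6-/-* (*Fbn1*, *Fbn2*, *Fbln1*, *Fbln5*, *Mfap2*, *Mfap4* and *Emilin1*) and *Fbln2* was higher, where 75.8% of 13460 genes were called, 38.0% higher and 37.8% lower. Their median log2 fold change was -2.11, against 0.00 over all genes. Past a 2-fold limit, 5 members were lower and 0 higher, against 14.2% and 11.3% of all genes (25.5% in both directions). The samples of the mutants did not overlap for all 8 members tested, against 78.2% of all genes. *Mfap4* is counted in each of these but passed the filter through its *Sirt6-/-* samples alone, so its call is no support for a difference. *Eln* and *Mfap5* did not pass the filter.

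Levels of different genes were compared in RPKM. In WT the order was *Fbln2* at 552 ± 61.4, *Emilin1* at 34.7 ± 1.83, *Fbln5* at 22.3 ± 6.08, *Fbn1* at 10.3 ± 0.512, *Fbn2* at 6.999 ± 0.767, *Fbln1* at 2.85 ± 0.666 and *Eln* at 0.9999 ± 0.144 (SD, n = 3), with the MFAP genes below 0.6 in every sample. No neighbours among these 7 genes overlapped in WT. In *Atm-/-* *Fbln2* (192 ± 11.6) was followed by *Fbn1* (22.4 ± 1.03), *Fbln1* (20.7 ± 0.0623), *Emilin1* (16.5 ± 1.08), *Fbln5* (7.36 ± 0.841) and *Fbn2* (1.45 ± 0.0812), and again no neighbours overlapped. In *Sirt6-/-* *Fbln2* (155 ± 5.25) and *Emilin1* (81.8 ± 3.08) led. *Fbn1* (42.2 ± 1.43) and *Fbln5* (40.7 ± 2.09) overlapped there, as did *Mfap2* (26.1 ± 2.92) and *Fbln1* (25.7 ± 2.53), and *Fbn2* followed at 6.77 ± 0.258.

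The make-up of the set was therefore different in each genotype. Summed over the 10 genes, the RPKM were 604, 692 and 595 in WT, 266, 247 and 271 in *Atm-/-* and 379.7, 365 and 390.1 in *Sirt6-/-*. *Fbln2* alone made up 85.8% to 90.0% of this sum in WT, 72.3% to 74.1% in *Atm-/-* and 40.8% to 40.9% in *Sirt6-/-*. Without *Fbln2* the sums were 85.7, 69.4 and 81.1 in WT, 69.6, 68.4 and 70.1 in *Atm-/-* and 225, 216 and 231 in *Sirt6-/-*. *Atm-/-* overlapped WT in this second sum (exact permutation test, two-sided, p = 0.3, adjusted 0.3), and *Sirt6-/-* was above both (p = 0.1 each, the smallest that the exact permutation test can give here, adjusted 0.1125). The *Sirt6-/-* samples were thus above all others in the summed RPKM of the other 9 genes, with *Emilin1*, *Fbn1*, *Fbln5*, *Mfap2* and *Fbln1* each above 6% of the whole sum in every *Sirt6-/-* sample.

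**Figure D3:**
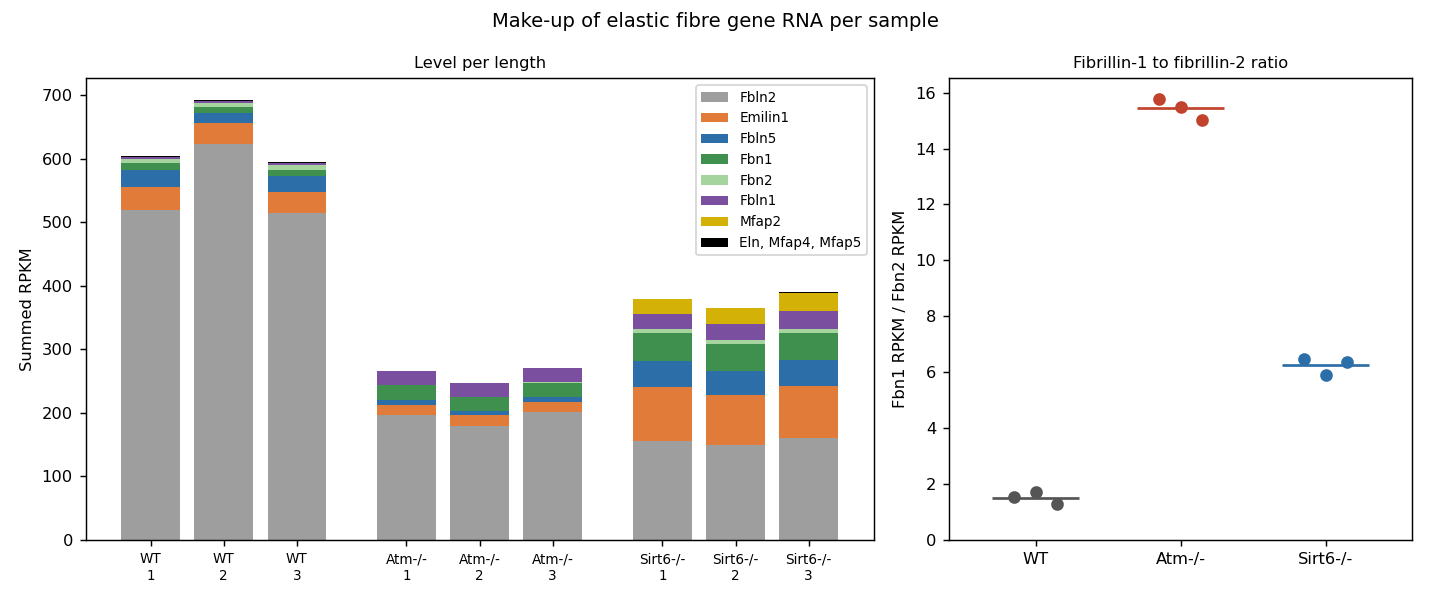
Left, RPKM of the elastic fibre genes stacked for each sample (linear axis from 0), with *Eln*, *Mfap4* and *Mfap5* drawn together. Right, ratio of *Fbn1* to *Fbn2* RPKM in each sample (points) with the mean of 3 samples (lines). *Fbln2* fills most of each WT and *Atm-/-* bar and 40.8% to 40.9% of each *Sirt6-/-* bar, and the fibrillin ratio is highest in *Atm-/-*.

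A further 34 genes of elastic fibre assembly, binding and turnover were listed as companions. In *Atm-/-*, 10 rose, 14 fell, 5 were not called and 5 were not tested, with a median log2 fold change of -0.40. In *Sirt6-/-*, 15 rose, 9 fell, 4 were not called and 6 were not tested, with a median of 0.42. Directly compared, 7 were higher in *Atm-/-* than in *Sirt6-/-*, 15 lower, 7 not called and 5 not tested. Of those tested, 24 of 29 were thus called in *Atm-/-* (68.4% of all genes), 24 of 28 in *Sirt6-/-* (76.6%) and 22 of 29 between the mutants (75.8%), the last being close to the share of all genes. Some called genes passed the filter on low counts only through the genotype where they were high, so their calls are no support. These were *Hmcn1*, *Mmrn1* and *Thsd4* in *Atm-/-* against WT, *Hmcn1* in *Sirt6-/-* against WT, and *Mmrn1* between the mutants.

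Of 7 genes of cross-linking, which are 5 lysyl oxidases, the procollagen proteinase *Bmp1* and the copper transporter *Atp7a*, 6 fell and 1 rose in *Atm-/-*, where 33.6% of all genes were called lower. In *Sirt6-/-* 3 rose and 4 fell, where 39.2% of all genes were called higher and 37.4% lower. *Lox*, the lysyl oxidase with the most reads, had 1529, 1267 and 1542 CPM in WT, 564, 485 and 565 in *Atm-/-* and 4001, 4082 and 4141 in *Sirt6-/-*. It fell by a log2 fold change of -1.43 (SE 0.07, adjusted p = 3.4e-10) in *Atm-/-* and rose by 1.496 (SE 0.06, adjusted p = 2.0e-11) in *Sirt6-/-*. *Loxl1*, whose product is tied to elastin upkeep, had 251 to 281 CPM in WT, 74.5 to 86.1 in *Atm-/-* (-1.78, SE 0.06, adjusted p = 4.6e-12) and 349 to 363 in *Sirt6-/-* (0.41, SE 0.05, adjusted p = 3.3e-06). Like *Fbln5* and *Emilin1*, both genes were below WT in every *Atm-/-* sample and above it in every *Sirt6-/-* sample. *Loxl2*, another lysyl oxidase, fell in both mutants (-1.71 and -1.66), and *Loxl4*, also of this family, rose in both (1.98 in *Atm-/-* and 4.13 in *Sirt6-/-*).

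The other fibulin genes also differed. *Efemp1*, which encodes fibulin-3, had 733, 586 and 741 CPM in WT, 47.0, 46.4 and 42.9 in *Atm-/-* and 0.982, 0.834 and 0.750 in *Sirt6-/-*. The genotypes were far apart, with a log2 fold change of -3.92 (SE 0.08, adjusted p = 2.9e-14) in *Atm-/-* and of -9.64 (SE 0.13, adjusted p = 9.9e-17) in *Sirt6-/-*. The summed mesothelial markers given with *Fbln2* had the same order of genotypes, and their part in the *Efemp1* result was not tested either. *Efemp2*, which encodes fibulin-4, a protein needed for elastin cross-linking, moved less, from 241 to 272 CPM in WT to 173 to 179.3 in *Atm-/-* (-0.52, SE 0.05, adjusted p = 6.3e-07) and 329 to 347 in *Sirt6-/-* (0.43, SE 0.05, adjusted p = 3.6e-06).

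Latent TGF-beta binding proteins, which tether TGF-beta to microfibrils, rose in *Sirt6-/-* in all 4 genes listed (39.2% of all genes were called higher), and in *Atm-/-* 2 rose, 1 fell and 1 was not called. *Ltbp2* had 65.6 to 100.7 CPM in WT, 31.9 to 34.3 in *Atm-/-* (-1.30, SE 0.12, adjusted p = 2.0e-07) and 493 to 527 in *Sirt6-/-* (2.68, SE 0.11, adjusted p = 1.6e-11). *Ltbp4*, which takes part in elastic fibre assembly together with fibulin-5, rose in both, by a log2 fold change of 0.52 (SE 0.09, adjusted p = 1.3e-04) in *Atm-/-* and of 1.37 (SE 0.09, adjusted p = 1.8e-09) in *Sirt6-/-*. All 4 were called lower in *Atm-/-* than in *Sirt6-/-* in the direct comparison, as were 37.8% of all genes.

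Among genes of EMILIN proteins, *Emilin2* had 5.14 to 6.23 CPM in WT, 40.0 to 51.6 in *Atm-/-* and 135 to 152 in *Sirt6-/-*. It rose in both mutants (2.99, SE 0.11, adjusted p = 9.6e-12, and 4.63, SE 0.08, adjusted p = 1.2e-15), where *Emilin1* had opposite directions. *Emilin3* had 0 reads in all 9 samples.

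Of the genes that act on fibrillin microfibrils, *Thsd4*, which encodes ADAMTS-like 6, a promoter of fibrillin-1 microfibril assembly, had 26, 9 and 19 reads in WT, 619, 574 and 647 in *Atm-/-* and 28, 20 and 26 in *Sirt6-/-*. It rose in *Atm-/-* (4.95, SE 0.22, adjusted p = 5.3e-11) and was not called in *Sirt6-/-* (0.40, SE 0.44, adjusted p = 0.42), and the direct comparison gave 4.56 (SE 0.16, adjusted p = 6.1e-16). In *Atm-/-* against WT, *Thsd4* passed the filter on low counts through *Atm-/-* alone, so that p-value is a description and no support. *Adamtsl4*, which encodes a fibrillin-1 binding protein, had 21.7 to 25.5 CPM in WT, 15.1 to 19.5 in *Atm-/-* and 147 to 158 in *Sirt6-/-*, where it rose by 2.70 (SE 0.07, adjusted p = 3.3e-14). *Adamts10*, a microfibril protease gene, fell in both, by -1.17 in *Atm-/-* (adjusted p = 5.9e-10) and -1.04 in *Sirt6-/-* (adjusted p = 7.9e-08).

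Of the elastin receptor complex, all 3 genes fell in *Sirt6-/-* (37.4% of all genes were called lower) and 2 fell in *Atm-/-* (33.6%). Of 6 elastolytic proteases, 3 rose in *Sirt6-/-*, which is near the 39.2% of all genes called higher, and 3 were not called. In *Atm-/-* 2 of them rose, 1 fell and 3 were not called. *Mmp2*, a gelatinase that also cuts elastin, had 83.4 to 85.2 CPM in WT, 110.3 to 115 in *Atm-/-* and 492 to 522 in *Sirt6-/-* (2.59, SE 0.05, adjusted p = 1.3e-15). *Ctsl*, the lysosomal protease cathepsin L, had 459 to 487 CPM in WT, 273 to 287 in *Atm-/-* and 1528 to 1758 in *Sirt6-/-* (1.78, SE 0.05, adjusted p = 4.0e-13).

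**Figure D4:**
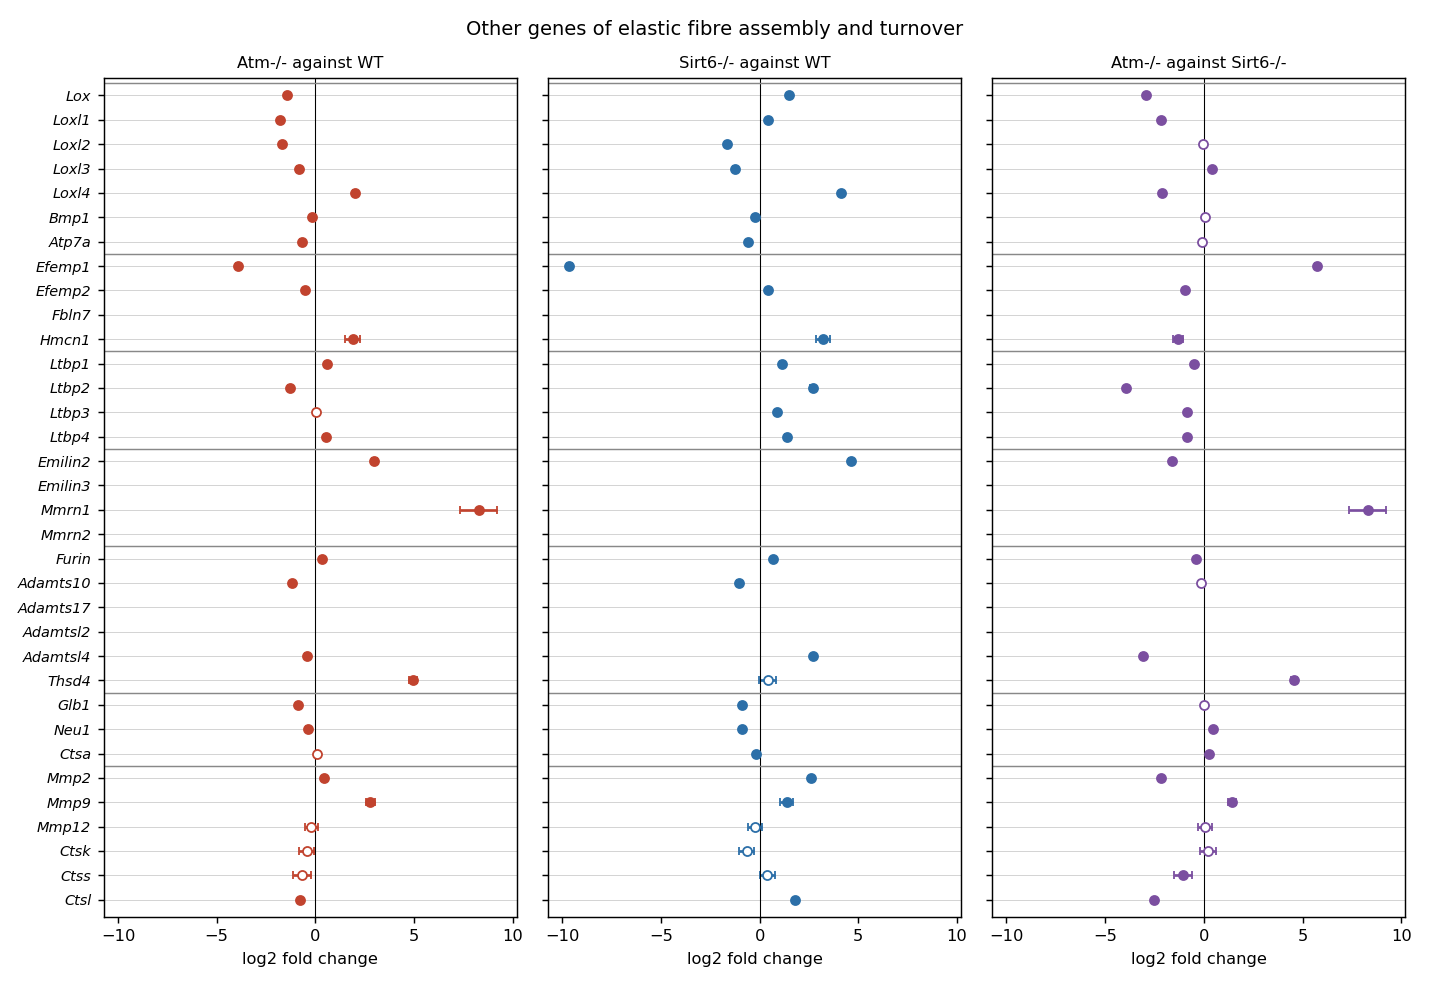
Log2 fold changes (points) with 1 SE (bars) of 34 further genes of elastic fibre assembly and turnover in the 3 comparisons. Open points were not called, genes without a point were not tested, and horizontal lines divide cross-linking enzymes, other fibulins, latent TGF-beta binding proteins, other EMILIN genes, fibrillin processing genes, the elastin receptor complex and proteases, from top to bottom. *Mmrn1* had 0 reads in WT and in *Sirt6-/-*, so that its fitted value depends on the prior count, and *Lox* and *Loxl1* lie on opposite sides of 0 in the first 2 panels.

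The summed fibroblast markers were 28145 to 31231 CPM in WT, 20225 to 20572.5 in *Sirt6-/-* and 9114 to 9361 in *Atm-/-*. Most of each sum came from *Col1a1*, *Col1a2*, *Fn1* and *Vim*, and the 11 genes did not all go one way, with *Col1a2*, *Pdgfrb*, *Dcn* and *S100a4* called higher than WT in *Sirt6-/-* and *Thy1* called higher in *Atm-/-*. Epithelial markers, all 5 above 3 reads in every sample, summed to 20.3 to 23.5 CPM in WT, 18.4 to 21.3 in *Sirt6-/-* and 86.3 to 93.4 in *Atm-/-*, where *Krt19* had a mean of 46.0 CPM and *Krt18* of 28.2. In *Atm-/-* against WT, *Epcam* (log2 fold change 0.06, adjusted p = 0.88) and *Krt8* (0.19, adjusted p = 0.18) were not called. *Cdh1* was called higher there (0.84, adjusted p = 1.5e-03). Endothelial markers (1 to 3 of 5 above 3 reads in every sample of a genotype, *Tie1* at 0 in all samples) summed to 3.11 to 5.15 CPM in WT, 0.649 to 0.990 in *Sirt6-/-* and 9.81 to 12.5 in *Atm-/-*. That sum was nearly all *Kdr* (mean 10.98 CPM in *Atm-/-*), while *Tek* had 0 reads in *Atm-/-* and 22 in WT. Macrophage markers (4 of 5 listed in the files) summed to 10.7 to 11.8 CPM in WT, 3.53 to 4.20 in *Sirt6-/-* and 3.72 to 4.05 in *Atm-/-*, mostly from *Csf1r* and *Cd68*. *Csf1r* had a mean of 7.71 CPM in WT and 0.716 in *Atm-/-*, where *Cd68* was not called against WT (log2 fold change -0.31, adjusted p = 0.20). *Aif1* went the other way, with 34 reads in all in *Atm-/-* and 0 in WT and *Sirt6-/-*. The part of these differences in the elastic fibre results was not tested.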

How the data were processed

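RNA of 9 MEF samples was selected with oligo(dT) beads and sequenced on an Illumina HiSeq instrument, per the labels. For each gene and sample the authors deposited a read count, which is a whole number without normalization, a length, and RPKM, which the authors made from the same counts per kilobase of that length and by the read total of the sample. The submitters' processing notes name build mm10. The aligner, the counting tool and their versions are not given in the sources used here. How reads shared between overlapping genes were assigned is not given either.

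Genotypes were taken from the sample labels. Counts of each pair of genotypes were fitted apart from the third genotype in R 4.3.3 with edgeR 4.0.16 (filterByExpr, TMM factors, a prior count of 0.125, glmQLFit and glmQLFTest), and p-values were adjusted by Benjamini-Hochberg over all tested genes with a threshold of 0.05. The SE of a log2 fold change was derived from its F statistic. Counting intervals of ratios are exact 95% intervals for summed reads and cover counting error only. Gene positions are those of GENCODE M21 on GRCm38 and promoter windows those of RefSeq on GRCm38.p6. The steps were tested on simulated counts with known changes.

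The members, the companion genes and the marker lists (fibroblast, smooth muscle, chondrocyte, endothelial, macrophage, epithelial and mesothelial) were chosen with earlier results of these data known. Named in the text were all 10 members, the companions *Lox*, *Loxl1*, *Efemp2* and *Ltbp4*, other companions with an adjusted p under 0.05, at least 2-fold change and a mean log2 CPM of at least 3 (at most 10 for each comparison), and *Atm*, *Sirt6* and *Trp53* as checks of the labels. Genes named as being at 0 or overlapping a member, *Mmrn1*, *Hmcn1*, *Bmp1*, *Atp7a* and single marker genes were named after their values were seen. Alternatives were DESeq2 1.42.0 size factors and its Wald test, library totals, a minimum of 10 counts in every sample, no filter, all 9 samples in one fit, a replicate block, a prior count of 2, a 2-fold limit, each sample left out in turn, and levels from TMM-scaled counts per kilobase in place of RPKM.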

Additional observations from a re-analysis of the deposited data

Results flagged for a closer look

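The mutants' departures from WT were set against each other by the direct test of *Atm-/-* against *Sirt6-/-*, in which the shared WT samples take no part. Of the 10 members and the companions named for their comparison with WT, 24 genes in all, 22 were tested and 20 were called in it by edgeR's quasi-likelihood test, where 75.8% of all tested genes were. Most of these companions were picked for a change against WT and *Mfap4* passed the filter through *Sirt6-/-* alone, so nothing is read from this count. Among the elastic fibre genes the log2 fold changes of *Atm-/-* over *Sirt6-/-* were -5.97 for *Mfap2*, -2.53 for *Fbln5*, -2.37 for *Emilin1*, -2.28 for *Fbn2*, -1.93 for *Mfap4*, -0.98 for *Fbn1* and -0.37 for *Fbln1*, and 0.25 for *Fbln2*. *Fbln5* and *Emilin1* were the members called on opposite sides of WT, lower in *Atm-/-* and higher in *Sirt6-/-*, with no overlap of samples.

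Among the cross-linking genes the same difference was -2.91 for *Lox*, -2.18 for *Loxl1* and -2.13 for *Loxl4*. It was 5.73 for *Efemp1* and -0.93 for *Efemp2* among the fibulins, -3.96 for *Ltbp2* and -0.83 for *Ltbp4* among the latent TGF-beta binding proteins, and -1.62 for *Emilin2*. For the microfibril genes it was -3.11 for *Adamtsl4* and 4.56 for *Thsd4*, and for the proteases -2.16 for *Mmp2* and -2.55 for *Ctsl*. *Lox*, *Loxl1*, *Efemp2*, *Ltbp2*, *Adamtsl4* and *Ctsl* were called lower than WT in *Atm-/-* and higher in *Sirt6-/-*. No cause was tested.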

How the results depend on the processing

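Of 346 log2 fold changes of members under the alternatives, 344 kept their side of the threshold, and of 586 of the named companions 585 did. No called value changed sign. Values that were not called did, with *Mfap2* in *Atm-/-* against WT between -0.28 and 0.21, *Loxl2* in *Atm-/-* against *Sirt6-/-* between -0.06 and 0.03, and *Adamts10* there up to 0.01. The exceptions were *Fbn2* in *Sirt6-/-* against WT, called without WT replicate 2 (-0.23, adjusted p = 0.0018), *Mfap4* in *Atm-/-* against *Sirt6-/-*, lost without *Sirt6-/-* replicate 3 (-1.45, adjusted p = 0.0532), and *Adamts10* in *Atm-/-* against *Sirt6-/-*, called without *Sirt6-/-* replicate 2 (-0.21, adjusted p = 0.0478). A 2-fold limit lowered the calls over all genes from 9080 to 2983 (*Atm-/-* against WT), from 10114 to 3872 (*Sirt6-/-* against WT) and from 10205 to 3433 (*Atm-/-* against *Sirt6-/-*), those of companions to 12, 15 and 14, and those of members in *Atm-/-* against *Sirt6-/-* from 8 to 5, since it drops smaller changes. With 1 sample left out, 8545 to 9240, 9651 to 10217 and 9896 to 10007 genes were called in these comparisons, with 23 to 25, 23 to 25 and 21 to 24 companions and 7 to 8, 8 to 9 and 8 to 9 members. The added member was *Mfap5* in both comparisons with *Atm-/-*, and *Fbn2* in *Sirt6-/-* against WT. *Mfap5* passed the filter on low counts in those fits through its *Atm-/-* samples alone, so its calls are no support for a difference. Library totals in place of TMM moved the median log2 fold change of all genes from 0.02 to 0.18 in *Atm-/-* and from 0.02 to 0.11 in *Sirt6-/-*, and the share of calls that were higher in *Atm-/-* from 50.8% to 64.9%. Members kept their calls, with *Fbn1* at 1.12 and *Emilin1* at -1.07 in *Atm-/-*. Summed levels of the 10 genes from TMM-scaled counts per kilobase were 669, 249 and 378 in WT, *Atm-/-* and *Sirt6-/-*, within 1 SD of the RPKM sums. Depth limits *Eln* in the mutants, *Mfap4*, *Mfap5* and, outside *Sirt6-/-*, *Mfap2*.

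The replicate block gave 8833, 10041 and 10157 calls over all genes and changed no call of a member. Deviations of samples with the same number were at most weakly correlated. The correlations were -0.02 to -0.0038 in *Atm-/-* and WT, -0.01 to 0.07 in *Sirt6-/-* and WT, and 0.01 to 0.08 in *Atm-/-* and *Sirt6-/-*. With 3 samples of each genotype they cannot exclude a weak pairing, and the main fits used none.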
